A study of Mus musculus with 18 samples.

Results

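The genes described here take up amino acids or make serine, glycine and asparagine inside the cell, and were followed from chronically irradiated skin to papilloma and carcinoma. Members were the 10 rows of the expression table that carried the symbols Slc7a5, Slc7a11, Slc3a2, Slc1a5, Phgdh, Psat1, Psph, Shmt2, Mthfd2 and Asns, among 14521 named genes. All 10 were present, so none was lost to the removal of low genes before deposition. RNA was sequenced from 6 littermate female SKH-1E Hairless mice, an outbred strain prone to skin tumours under ultraviolet light, which had been irradiated with solar simulators from 3 months of age. From each animal came skin without a lesion (CHR, chronically irradiated), a benign epidermal growth or papilloma (PAP) and an invasive squamous cell carcinoma (SCC), so that n = 6 in each stage and the stages could be compared within mice. All 3 tissues had received the irradiation, and unirradiated skin was not analysed here. Mice are named by the numbers of the labels, which are 2, 3, 7, 8, 9 and 10.

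Slc3a2 encodes the heavy chain (CD98) that carries several amino acid transporters to the cell surface. Slc7a5 (LAT1), which exchanges glutamine for leucine and other large neutral amino acids, and Slc7a11 (xCT), which exchanges glutamate for cystine, are light chains bound to it, whereas Slc1a5 (ASCT2) brings in glutamine and small neutral amino acids on its own. Phgdh, Psat1 and Psph are the successive enzymes that turn a glycolytic intermediate into serine. In mitochondria, Shmt2 then splits serine into glycine and a one-carbon unit on folate, and Mthfd2 passes that unit on towards formate, which the cytosol uses to build nucleotides. Asns makes asparagine from aspartate and glutamine. When amino acids run short, the transcription factor ATF4 is translated and raises many of these genes through amino acid response elements in their promoters.

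The expression values are normalised read counts, recovered from the deposited values and divided by each library's size factor. The libraries held 15.4 to 21.0 M recovered reads, with a median of 18.9 M, and Phgdh, with a lowest recovered count of 21 reads, was the only member with libraries under 30 reads. Log2 fold changes are differences of log2(value + 1), computed on the deposited values, with the mouse as a block in limma and Benjamini-Hochberg adjustment over all 14521 genes, and a gene was called at an adjusted p under 0.05. Because that scale compresses low values, the log2 fold change of Phgdh is smaller than the ratio of its read counts.

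The members lie on 7 chromosomes of GRCm38 (GENCODE M21). The solute carriers are Slc7a5 at chr8:121881150-121907694 and Slc7a11 at chr3:49892526-50443614, both on the minus strand, Slc3a2 at chr19:8706882-8723369 on the minus strand, and Slc1a5 at chr7:16781340-16798274 on the plus strand. The enzymes are all on the minus strand, with Phgdh at chr3:98313170-98339990, Psat1 at chr19:15904678-15947337, Psph at chr5:129765558-129787449, Shmt2 at chr10:127517123-127522444, Mthfd2 at chr6:83305691-83325908 and Asns at chr6:7675169-7693254. How reads were shared out matters for 3 of them. For Phgdh, 46.9% of all 76-base stretches of its longest transcript also occur in 13 other annotated genes. Exons of Psph overlap Cct6a on the other strand over 452 bases, and exons of Shmt2 overlap Ndufa4l2 on the other strand over 32 bases. Whether strand was used in the counting is not given in the sources used here, so reads in these stretches cannot be assigned with certainty.

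The amino acid response element was searched in the promoters because ATF4 acts through it, as the letters TGATGNAA on both strands, where N is any base. The windows ran from 250 bases before to 50 after the RefSeq transcript start (GRCm38.p6), and 8 of the 10 members had one, with Slc7a5 and Slc1a5 as the exceptions. The letters were found in Asns and Slc7a11, that is in 2 of 8 members, and in 311 of 10745 tested genes with a window (2.89%). In the 6 related lists described further on, they were found in 5 of 18 genes of the amino acid response, 5 of 12 tRNA synthetases, 2 of 21 other transporters, 2 of 13 glutamine and related enzymes, 0 of 20 folate genes and 0 of 4 cysteine genes with a window. The matches are shown with their surroundings, read along the strand that holds the letters, with the match in capitals. The Asns match lay at bases -23 to -16 from the start, and the Slc7a11 matches lay at -66 to -59 on the strand of the gene and at -47 to -40 on the other strand.
Asns, chr6:7693214-7693243: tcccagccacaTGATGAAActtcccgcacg
Slc7a11, chr3:50443661-50443690: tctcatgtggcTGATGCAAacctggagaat
Slc7a11, chr3:50443642-50443671, other strand: gggctgcatgaTGATGCAAattctccaggt
Genes with these letters did not move alike, since Asns rose in PAP vs CHR by 1.31 on the log2 scale, whereas Slc7a11 gave -0.62 and was not called. A match is a description of the letters only, and no binding was measured.

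In PAP vs CHR, 5 members rose, 1 fell and 4 were not called. Shmt2, Asns, Slc7a5, Psat1 and Phgdh were higher in the papillomas, and Slc1a5 was lower. Over all genes tested, 52.6% were called in this comparison, 23.3% as higher and 29.3% as lower, so that a call by itself does not set a member apart. The median log2 fold change of the 10 members was 0.48, against 0.00 over all 14521 genes. The 6 papillomas did not overlap the 6 skin samples for Shmt2, Mthfd2 and Asns on the high side (14.4% of all genes) or for Slc1a5 on the low side (19.2% of all genes). Of the 10 members, 6 moved the same way in all 6 mice, against 48.8% of all genes. In SCC vs CHR, 4 members rose (Shmt2, Psat1, Asns and Slc7a5), 1 fell (Slc1a5) and 5 were not called, against 38.4% of all genes called, with 15.8% higher and 22.7% lower. The median of the members was 0.58, against -0.02 over all genes. The carcinomas did not overlap the skin samples for these same 4 higher members, against 8.49% of all genes, and for no lower member (11.2%). Of the 10, 5 moved the same way in all 6 mice (38.5% of all genes). In SCC vs PAP, where 9.85% of all genes were called, Slc7a11 was the only member called, and 2 had an unadjusted p under 0.05. Over all genes, 8.75% were higher and 1.1% lower in SCC, and the groups did not overlap for 0.255% on the high and 0.158% on the low side, which included no member. Shmt2 was the only member to move the same way in all 6 mice (11.3% of all genes). PAP vs CHR and SCC vs CHR share the skin samples, so their values are set side by side and not counted as separate evidence.

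**Figure D1:**
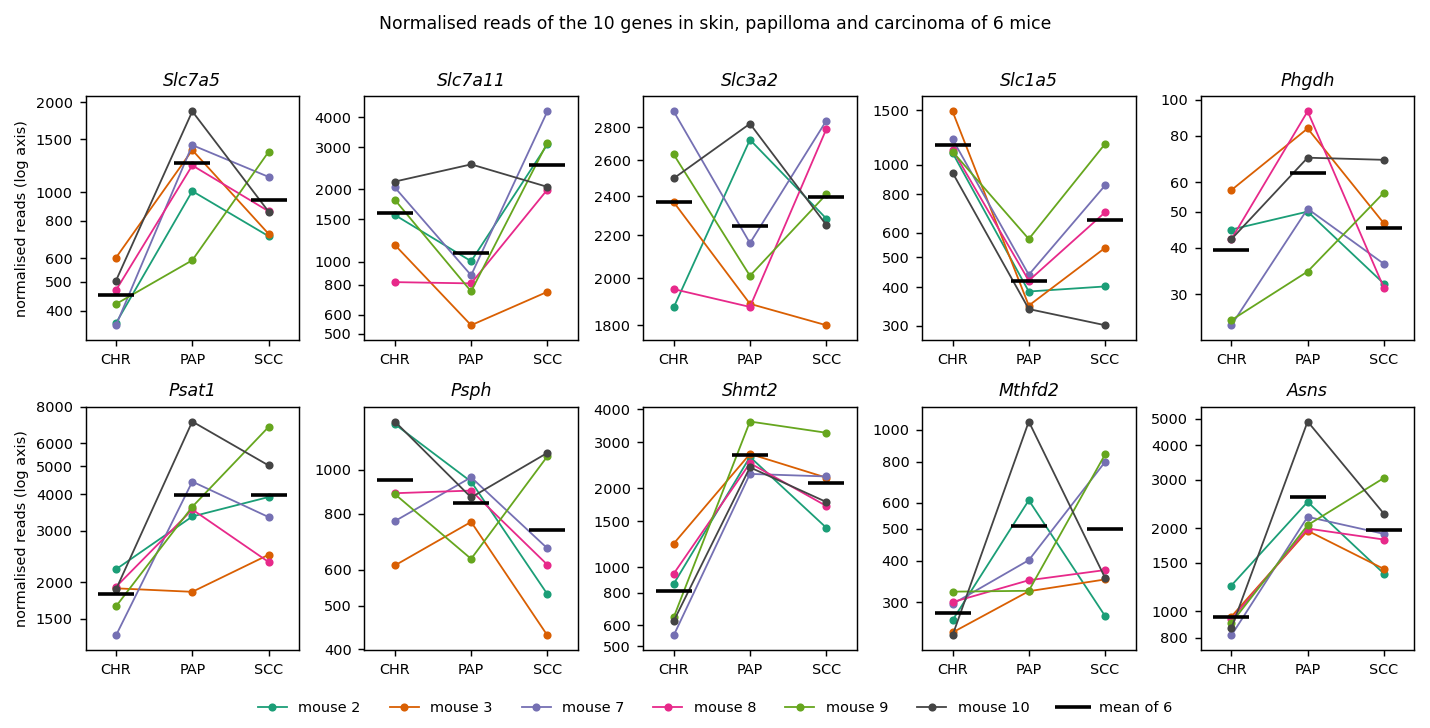
Normalised reads of each gene (vertical log axis, its own range in each panel) in CHR, PAP and SCC, with 1 coloured line per mouse and a black bar at the mean of 6. Shmt2 and Asns rose from CHR to PAP in all 6 mice, Slc1a5 fell in all 6, and Slc3a2 went both ways around a mean of 2372, 2247 and 2396 reads.

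**Figure D2:**
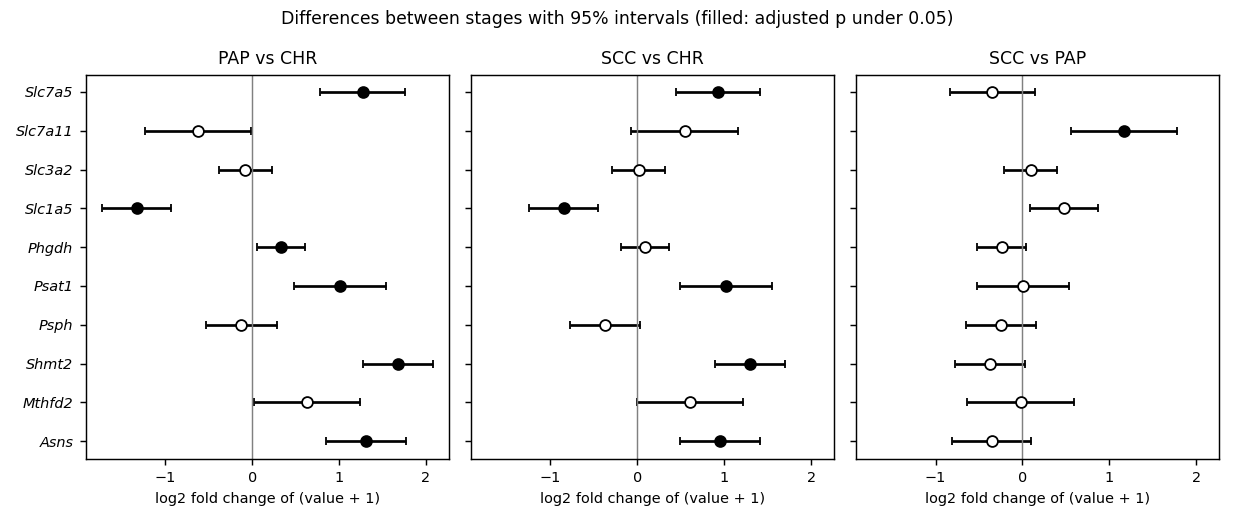
Log2 fold change of each gene (points) with its 95% confidence interval (bars) in the 3 comparisons, filled where the adjusted p was under 0.05. Filled points lie on both sides of 0 in PAP vs CHR and SCC vs CHR, and Slc7a11 is the only filled point in SCC vs PAP.

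Slc7a5, the light chain for large neutral amino acids, stood in CHR at 364, 603, 358, 470, 422 and 505 normalised reads in mice 2, 3, 7, 8, 9 and 10. In PAP it stood at 1007, 1382, 1436, 1228, 591 and 1863, and in SCC at 712, 725, 1124, 862, 1363 and 860. Every papilloma and carcinoma was above the skin of its own mouse, and 1 papilloma, that of mouse 9, lay below the highest skin sample. The log2 fold change was 1.27 ± 0.22 (SE, n = 6 mice, adjusted p = 0.000442) in PAP vs CHR and 0.93 ± 0.22 (adjusted p = 0.00636) in SCC vs CHR. Carcinoma was lower than papilloma in 5 of 6 mice, with a difference of -0.35 (95% interval -0.83 to 0.14) that was not called. That difference was -0.64 (adjusted p = 0.0287) once mouse 9 was left out, the animal in which Slc7a5 was lowest among papillomas and highest among carcinomas.

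Slc3a2, the shared heavy chain, did not follow its light chain. It ran from 1874 to 2901 normalised reads in CHR (median 2434), from 1876 to 2822 in PAP (median 2086) and from 1801 to 2840 in SCC (median 2347). The 3 ranges were nearly the same. Differences were -0.08 (95% interval -0.38 to 0.23) in PAP vs CHR, 0.02 (-0.29 to 0.32) in SCC vs CHR and 0.09 (-0.21 to 0.40) in SCC vs PAP, and none was called. Some 3.54% of its 76-base stretches occur in other annotated genes.

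Because light and heavy chains pair, their levels were also set against each other per kilobase of exon. The ratio of Slc7a5 to Slc3a2 ran from 0.118 to 0.242 in CHR (median 0.189), from 0.280 to 0.696 in PAP (median 0.626) and from 0.294 to 0.538 in SCC (median 0.370). It was higher in every lesion than in any skin sample. The papillomas themselves split, with 0.623 to 0.696 in mice 3, 7, 8 and 10 and 0.280 and 0.352 in mice 9 and 2. The ratio of Slc7a11 to Slc3a2 ran from 0.107 to 0.219 in CHR, from 0.0729 to 0.228 in PAP and from 0.105 to 0.378 in SCC, so its ranges overlapped in all 3 stages. These ratios describe transcripts and say nothing of the protein pairs.

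**Figure D3:**
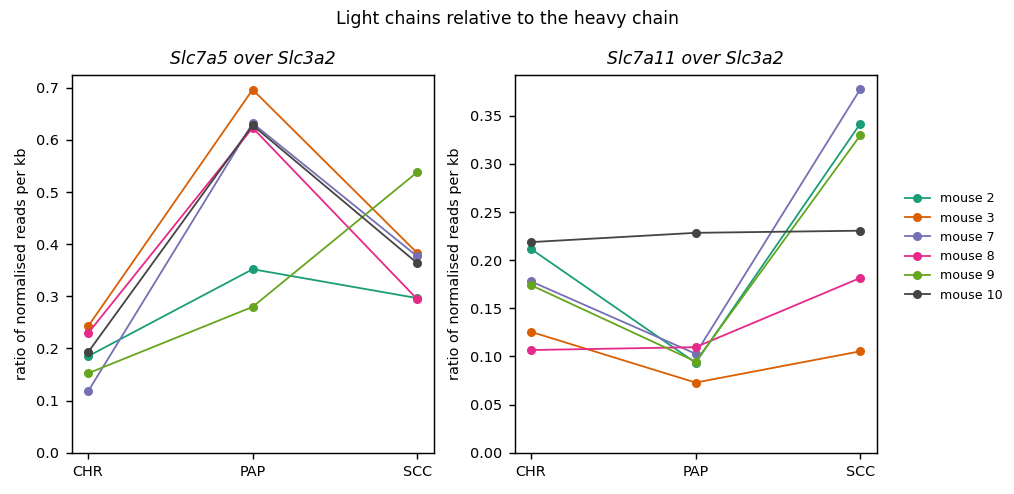
Ratio of normalised reads per kilobase of a light chain to the heavy chain Slc3a2 (vertical axis, from 0) by stage, with 1 line per mouse. For Slc7a5 all 12 lesions lie above the highest skin value of 0.242, and for Slc7a11 the stages overlap and the carcinomas of mice 2, 7 and 9 reach 0.330 to 0.378.

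Slc7a11, the cystine exchanger, had the widest range of the 10 genes among animals in each stage, with a ratio of highest to lowest of 2.63 in CHR, 4.68 in PAP and 5.65 in SCC. It stood at 1565, 1174, 2037, 821, 1810 and 2156 normalised reads in CHR of mice 2, 3, 7, 8, 9 and 10, at 1004, 543, 877, 811, 752 and 2543 in PAP, and at 3080, 749, 4231, 1996, 3134 and 2049 in SCC. Papilloma was below skin in 5 of 6 mice, and carcinoma was above papilloma in 5 of 6, with mouse 10 as the exception both times. The carcinomas of mice 2, 7 and 9 were above every other library, and that of mouse 3 was below every skin sample. The log2 fold change in SCC vs PAP was 1.17 ± 0.28 (adjusted p = 0.0246, limma). This call rested on single animals and on the fit, since the adjusted p was 0.0681 without the block, 0.0862 in a fit of these stages alone, and 0.0639, 0.136, 0.103 and 0.0667 without mouse 2, 7, 8 or 9. The values against skin were -0.62 ± 0.28 in PAP (adjusted p = 0.0816) and 0.55 ± 0.28 in SCC (adjusted p = 0.147), and neither was called. PAP vs CHR was called lower without mouse 10 (-0.79, adjusted p = 0.0258) and in a fit of these stages alone (adjusted p = 0.0384).

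Slc1a5, the glutamine carrier, was the member that fell. It stood at 1092, 1489, 1209, 1118, 1102 and 941 normalised reads in CHR of mice 2, 3, 7, 8, 9 and 10, at 387, 348, 439, 420, 573 and 339 in PAP, and at 402, 536, 855, 700, 1167 and 301 in SCC. The highest papilloma, at 573, was well under the lowest skin sample, at 941, and the carcinomas spread from below all papillomas to within the range of skin. The log2 fold change was -1.33 ± 0.18 (adjusted p = 5.93e-05) in PAP vs CHR and -0.85 ± 0.18 (adjusted p = 0.00306) in SCC vs CHR. From PAP to SCC it gave 0.48 ± 0.18, higher in 5 of 6 mice, with an adjusted p of 0.12.

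In bulk tissue, fewer cells of a type and less RNA per cell cannot be told apart, and the makeup of the samples moved with stage. All 7 basal keratinocyte markers rose in PAP vs CHR, and their summed level ran from 128320 to 229121 normalised reads in CHR, from 414141 to 727399 in PAP and from 155947 to 491597 in SCC. Of 10 general keratinocyte markers, 5 rose and 1 fell, and their sum ran from 178112 to 272194, from 323954 to 509299 and from 137350 to 359145. Against this, all 10 skeletal muscle, all 7 myeloid, all 6 T cell and all 6 sebaceous gland markers fell in PAP vs CHR, as did 7 of 8 adipocyte and 6 of 8 dermal fibroblast markers, while of 6 endothelial markers 3 fell and 1 rose. The summed muscle markers lay between 82314 and 164037 normalised reads in CHR, between 160 and 6868 in PAP and between 119 and 27526 in SCC. The myeloid sum lay between 35955 and 57553, between 1273 and 9167 and between 5023 and 54350, and the fibroblast sum between 148535 and 337261, between 6009 and 184280 and between 20249 and 551951. In SCC vs PAP, 8.75% of all genes were called higher and 1.1% lower. Called higher there were 9 of 10 muscle, 7 of 7 myeloid and 4 of 8 fibroblast markers. So were 3 of 6 endothelial and 1 of 6 T cell markers. Called lower were 1 of 7 basal and 2 of 10 general keratinocyte markers, and no adipocyte or sebaceous gland marker was called. No marker of any of the 9 lists was at 0 in all libraries of a stage. The part of these cells in the changes of the 10 genes was not tested.

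Of the serine enzymes, Psat1 rose, Psph did not, and Phgdh was close to the limit of the test. Psat1, the aminotransferase of the second step, stood at 2213, 1904, 1313, 1927, 1652 and 1888 normalised reads in CHR of mice 2, 3, 7, 8, 9 and 10, at 3360, 1853, 4426, 3551, 3627 and 7117 in PAP, and at 3918, 2482, 3345, 2345, 6817 and 5031 in SCC. All 6 carcinomas and 5 of 6 papillomas were above every skin sample, and the papilloma of mouse 3 was level with the skin of its own mouse. The log2 fold change was 1.01 ± 0.24 (adjusted p = 0.00384) in PAP vs CHR and 1.02 ± 0.24 (adjusted p = 0.00593) in SCC vs CHR, and SCC vs PAP gave 0.01 (95% interval -0.52 to 0.54).

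Phgdh, which catalyses the first step, was the lowest of the 10 in every stage. It stood at 44.8, 57.2, 24.7, 42.2, 25.5 and 42.2 normalised reads in CHR of mice 2, 3, 7, 8, 9 and 10, at 50, 83.8, 50.9, 93.2, 34.5 and 69.9 in PAP, and at 32.0, 46.5, 36.2, 31.2, 56.3 and 69.0 in SCC. Papilloma was above skin in all 6 mice, but the groups overlapped. The mean ratio was 1.62, and the log2 fold change was 0.33 ± 0.13 (adjusted p = 0.0467). That call was lost without the block (adjusted p = 0.0565), in limma-voom (0.0558) and without mouse 3, 7, 8 or 10 (0.087, 0.126, 0.115 and 0.0935). SCC vs CHR gave 0.09 (95% interval -0.19 to 0.37). Every library was under 100 normalised reads, and 46.9% of its stretches occur in other genes, so both its level and this call are uncertain.

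Psph, the phosphatase of the last step, ran from 614 to 1279 normalised reads in CHR (median 885), from 635 to 962 in PAP (median 884) and from 430 to 1090 in SCC (median 643). The medians of skin and papilloma were nearly equal, and the carcinomas reached lower. Differences were -0.12 (95% interval -0.53 to 0.28) in PAP vs CHR and -0.37 (-0.77 to 0.04, lower in 5 of 6 mice) in SCC vs CHR, and neither was called. Cct6a, the chaperonin gene that overlaps it on the other strand, went the other way, from a mean of 2959 in CHR to 6277 in PAP and 6027 in SCC.

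Shmt2, the mitochondrial serine hydroxymethyltransferase, showed the largest rise among the 10 in both comparisons with skin. It stood at 863, 1230, 549, 944, 644 and 623 normalised reads in CHR of mice 2, 3, 7, 8, 9 and 10, at 2636, 2706, 2270, 2495, 3598 and 2405 in PAP, and at 1416, 2197, 2220, 1714, 3260 and 1775 in SCC. The groups were well apart, with a highest skin sample of 1230 against a lowest papilloma of 2270 and a lowest carcinoma of 1416. The ratio of PAP to CHR within a mouse had a median of 3.46 and reached 5.59. The log2 fold change was 1.67 ± 0.19 (adjusted p = 1.15e-05) in PAP vs CHR and 1.29 ± 0.19 (adjusted p = 0.000238) in SCC vs CHR. Carcinoma was below papilloma in all 6 mice, by -0.38 (95% interval -0.78 to 0.02), which was not called (adjusted p = 0.234). Its overlapping neighbour Ndufa4l2 also rose, from a mean of 663 in CHR to 4600 in PAP and 2082 in SCC, and the part of its reads in Shmt2, over 32 shared bases, was not tested.

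Mthfd2, the mitochondrial dehydrogenase and cyclohydrolase that acts next, stood at 264, 243, 296, 300, 323 and 238 normalised reads in CHR of mice 2, 3, 7, 8, 9 and 10, at 611, 324, 402, 349, 325 and 1059 in PAP, and at 272, 351, 798, 375, 841 and 355 in SCC. Every papilloma lay above every skin sample, but barely. The lowest papilloma, of mouse 3, was at 323.6 and the highest skin sample, of mouse 9, at 322.6 (deposited values 398 and 397). Within mouse 9 the ratio of papilloma to skin was only 1.01. High values came from different animals in the 2 lesions, mice 2 and 10 in PAP and mice 7 and 9 in SCC. The log2 fold changes were 0.63 ± 0.28 (adjusted p = 0.0779) in PAP vs CHR and 0.61 ± 0.28 (adjusted p = 0.107) in SCC vs CHR, and neither was called. Without mouse 9, PAP vs CHR was 0.75 with an adjusted p of 0.0474, and without mouse 10 it was 0.38 with an adjusted p of 0.234.

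Asns, asparagine synthetase, stood at 1238, 954, 815, 932, 904 and 865 normalised reads in CHR of mice 2, 3, 7, 8, 9 and 10, at 2492, 1958, 2199, 1994, 2051 and 4884 in PAP, and at 1368, 1422, 1907, 1819, 3044 and 2257 in SCC. All lesions were above all skin samples, and the papilloma of mouse 10 was far above the other 5. The log2 fold change was 1.31 ± 0.21 (adjusted p = 0.00022) in PAP vs CHR and 0.95 ± 0.21 (adjusted p = 0.00377) in SCC vs CHR, and without mouse 10 the first was 1.09. SCC vs PAP gave -0.36 (95% interval -0.81 to 0.10).

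Levels were compared between genes per kilobase of exon, with all annotated exons of a gene counted. That length exceeds the longest transcript by different proportions, with 13922 against 9223 bases for Slc7a11 and 3708 against 3517 for Slc7a5. The order of genes, and the size of the ratios between chains, may therefore depend on this choice. In CHR the mean level was highest for Slc3a2, at 672 ± 113 reads per kb (SD, n = 6), followed by Psat1 at 427 ± 71.6, Asns at 348 ± 54.4, Slc1a5 at 278 ± 43.9, Shmt2 at 260 ± 82.4 and Psph at 219 ± 61.9. Slc7a5 at 122 ± 25.1 and Slc7a11 at 114 ± 37.1 did not differ beyond their spread, Mthfd2 was at 79.5 ± 9.81 and Phgdh at 15.9 ± 4.98. In PAP, Asns at 949 ± 416, Psat1 at 938 ± 411 and Shmt2 at 864 ± 152 had higher means than Slc3a2 at 637 ± 119, but these 4 were not separated beyond their spread among mice. Within single papillomas, Asns was above Slc3a2 in every mouse. Psat1 was above it in every mouse except mouse 3 (435 against 535), and Shmt2 in every mouse except mouse 10 (774 against 800). Slc1a5, at 100 ± 20.5, was below Slc7a5, at 337 ± 116, the reverse of their order in CHR. In SCC, Psat1 stood at 938 ± 400, Asns at 720 ± 227, Slc3a2 at 679 ± 109 and Shmt2 at 674 ± 208, which are not separated beyond their spread.

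The lesions of single animals took different places. Ranked by their difference from the skin of the same mouse, the papilloma of mouse 10 was the highest of the 6 papillomas for 4 of 10 genes, and the carcinoma of mouse 9 was the highest of the 6 carcinomas for 7 of 10. The carcinoma of mouse 2 was the lowest for 5 of 10. The median difference of the 10 genes from skin ran from 0.09 in the papilloma of mouse 9 to 1.05 in that of mouse 10, and from 0.05 in the carcinoma of mouse 3 to 1.09 in that of mouse 7. Mouse 10 was the highest carcinoma for 0 of 10 genes, and mouse 9 the highest papilloma for 2.

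Following the progression model of the study, a mixed model per gene with the mouse as random effect placed genes as early when the change to carcinoma was already present in papilloma, and late when it appeared between papilloma and carcinoma. The classes used an unadjusted p under 0.05, so their shares are not to be set beside those of called genes. Slc7a5, Slc1a5, Psat1, Shmt2 and Asns were early, that is 5 of 10, against 41.1% of all genes, and they stayed early without any 1 mouse. The same 5 members were early at an adjusted p under 0.05. No member was late (2.2% of all genes) or stepwise (0.523%). Slc7a11 became late without mouse 3 or mouse 10, and Psph became late without mouse 9.

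The rise of several members depended on what the libraries were scaled to. When each library was set relative to the mean of the 10 general keratinocyte markers, an alternative chosen after the data had been seen, the median of all genes moved to -0.65 in PAP vs CHR. The calls over all genes, 3388 higher and 4251 lower on the scale of the deposited table, became 319 and 8240 there, 118 and 12925 relative to the general and basal markers, and 4893 and 3587 with libraries centred on their medians. Relative to the general markers, Shmt2 stayed higher, at 1.02 (adjusted p = 0.00221), and Slc1a5 stayed lower, at -1.98. Slc7a5 gave 0.62 (adjusted p = 0.0729), Asns 0.66 (adjusted p = 0.0551) and Psat1 0.36 (adjusted p = 0.214), which were no longer called, and Phgdh turned to -0.32 (adjusted p = 0.214). Slc7a11 (-1.27), Slc3a2 (-0.73) and Psph (-0.78) were then called lower. In SCC vs CHR relative to the general markers, Slc7a5 (0.75, adjusted p = 0.0736) and Asns (0.77, adjusted p = 0.0591) were no longer called either. For PAP vs CHR relative to the general and basal markers together, the median of all genes moved to -1.13 and Shmt2 gave 0.54 (adjusted p = 0.0414). Slc7a5 (0.14, adjusted p = 0.624), Asns (0.18, adjusted p = 0.513) and Psat1 (-0.12) were not called there, and Phgdh gave -0.80. In SCC vs CHR on that scale Slc7a5 (0.32), Asns (0.34) and Psat1 (0.41) were not called. Shmt2 (0.69, adjusted p = 0.0229) was then the only member called higher. The distance of each member from the median of all genes is the same on each of these scales. The general markers had a mean log2 value of 13.13 in skin, 13.79 in papilloma and 13.31 in carcinoma. Against skin, a gene therefore lies above 0 on the scale of the general markers where it rose by more than they did. A call also needs an adjusted p under 0.05, which Slc7a5, Asns and Psat1 did not reach in PAP vs CHR. From papilloma to carcinoma these markers fell. In SCC vs PAP on that scale Slc7a5 (0.13), Shmt2 (0.095) and Asns (0.12) were no longer below 0, and none was called. The lower values of these genes in carcinoma than in papilloma therefore also depended on the scaling.

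**Figure D4:**
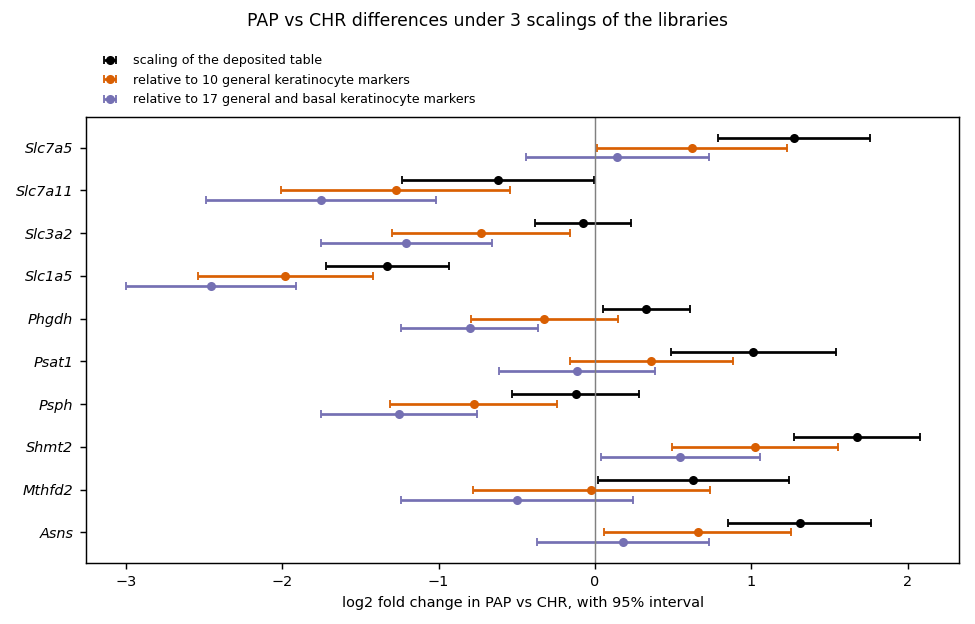
Log2 fold change in PAP vs CHR (points, with 95% intervals) of each gene under the scaling of the deposited table (black), relative to 10 general keratinocyte markers (orange) and relative to 17 general and basal ones (violet). Shmt2 stays above 0 and Slc1a5 below 0 on all 3 scales, while Psat1, Phgdh and Mthfd2 lie above 0 on the first and below 0 on the third.

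Genes around the 10 in the same pathways were taken as 6 fixed lists, whose counts are to be read against all genes, of which 23.3% were called higher and 29.3% lower in PAP vs CHR, and 15.8% and 22.7% in SCC vs CHR. Of 25 other amino acid transporters in the table (27 fixed), 2 rose and 15 fell in PAP vs CHR, with a median of -0.89 against 0.00 over all genes. The transporters that rose were Slc7a1, a carrier of arginine and lysine, from a mean of 1228 to 3671 normalised reads (log2 fold change 1.52), and Slc38a2, a sodium-coupled carrier of glutamine and alanine, from 6916 to 16533 (1.21), both named after their values had been seen. The falls named by the rule, which ranks on the compressed log2(value + 1) scale, were Slc7a2, another cationic carrier, from 1446 to 260 (-2.26), Slc7a10, from 102 to 0.171 (-1.99), and Slc43a2, from 2704 to 916 (-1.75). By the ratio of mean reads, Slc7a10 fell more than Slc7a2, and Slc38a3, named for this reason after its values had been seen, went from 75.6 to 4.19 reads. In SCC vs CHR 3 rose and 10 fell. In SCC vs PAP, where 8.75% of all genes were called higher, 3 of the 25 rose. These were Slc7a7 (0.93), Slc7a8 (1.07) and Slc38a1 (0.76), also named after their values had been seen. That count was 1 without the block, 0 in a fit of these stages alone and 0 without mouse 3, 7 or 8.

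Of 25 genes of folate one-carbon metabolism and glycine cleavage, 12 rose and 6 fell in PAP vs CHR (median 0.28, against 23.3% and 29.3% of all genes), and 10 rose and 4 fell in SCC vs CHR (median 0.24, against 15.8% and 22.7%). Mthfd1l, the mitochondrial enzyme that releases formate after Mthfd2, rose from 312 to 1400 normalised reads (1.88) and stood at 987 in SCC. Aldh1l2, which oxidises formyl folate in mitochondria, rose from 313 to 1244 (1.63). Ggh, the hydrolase that trims folate polyglutamates, fell from 3134 to 1458 (-1.12). In SCC vs PAP limma called 0 of 25, as did limma-voom, with 2 at an unadjusted p under 0.05, in a comparison where 9.85% of all genes were called.

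Of 20 genes of the amino acid response around ATF4, 5 rose and 3 fell in PAP vs CHR (median 0.06), and 3 rose and 4 fell in SCC vs CHR (median -0.09). Atf4 itself rose in all 6 mice, from a mean of 3522 to 5488 normalised reads (0.59 ± 0.12, adjusted p = 0.00154), and stood at 4916 in SCC (0.43, adjusted p = 0.0161). Relative to the general keratinocyte markers, Atf4 gave -0.062 in PAP vs CHR (adjusted p = 0.818). Ddit4, an inhibitor of mTORC1 that also answers to hypoxia, rose from 589 to 3073 (2.20), Eif4ebp1, a repressor of cap-dependent translation, from 474 to 1340 (1.29), and Atf3, a stress-response factor, fell from 1777 to 387 (-1.92). Among these 20 genes the share of higher calls in PAP vs CHR was near that of all genes, 23.3%, and the share of lower calls was under 29.3%.

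All called cytosolic aminoacyl-tRNA synthetases moved up. Of 20, which load amino acids onto tRNA, 15 rose and 5 were not called in PAP vs CHR (median 0.50), and 8 rose and 12 were not called in SCC vs CHR (median 0.39). Nars, for asparagine, rose from 2830 to 4962 normalised reads (0.77), Tars from 1872 to 3115 (0.71) and Mars from 1457 to 2443 (0.70). These rises were smaller than the shift of the median gene under the general and basal keratinocyte scale, on which all 3 gave values under 0.

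Of 21 enzymes of glutamine, proline, branched-chain and arginine metabolism, 5 rose and 3 fell in PAP vs CHR and likewise in SCC vs CHR, shares near or under those of all genes (23.3% higher and 29.3% lower, and 15.8% and 22.7%) except for the higher side in SCC vs CHR. Glul, glutamine synthetase, fell from 3297 to 385 normalised reads (-3.04) and stood at 956 in SCC. Arg1, which splits arginine into urea and ornithine, rose from 398 to 2776 (2.18) and stood at 3738 in SCC, and Odc1, the first enzyme of polyamine synthesis, rose from 107 to 654 (2.07). In SCC vs PAP, where 8.75% of all genes were called higher, 2 of the 21 rose. These were Glul (1.30) and Bcat1, the cytosolic branched-chain aminotransferase, from 106 to 585 (1.53), the latter named after its values had been seen. That count was 1 without the block or without mouse 2 or 3, and 0 in a fit of these stages alone and without mouse 7 or 8. Of 7 genes of cysteine and glutathione synthesis, 3 rose and 4 were not called in PAP vs CHR, namely Cth (1.08), which makes cysteine from cystathionine, Gsr (0.81) and Gss (0.70), and 4 rose and 1 fell in SCC vs CHR.

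**Figure D5:**
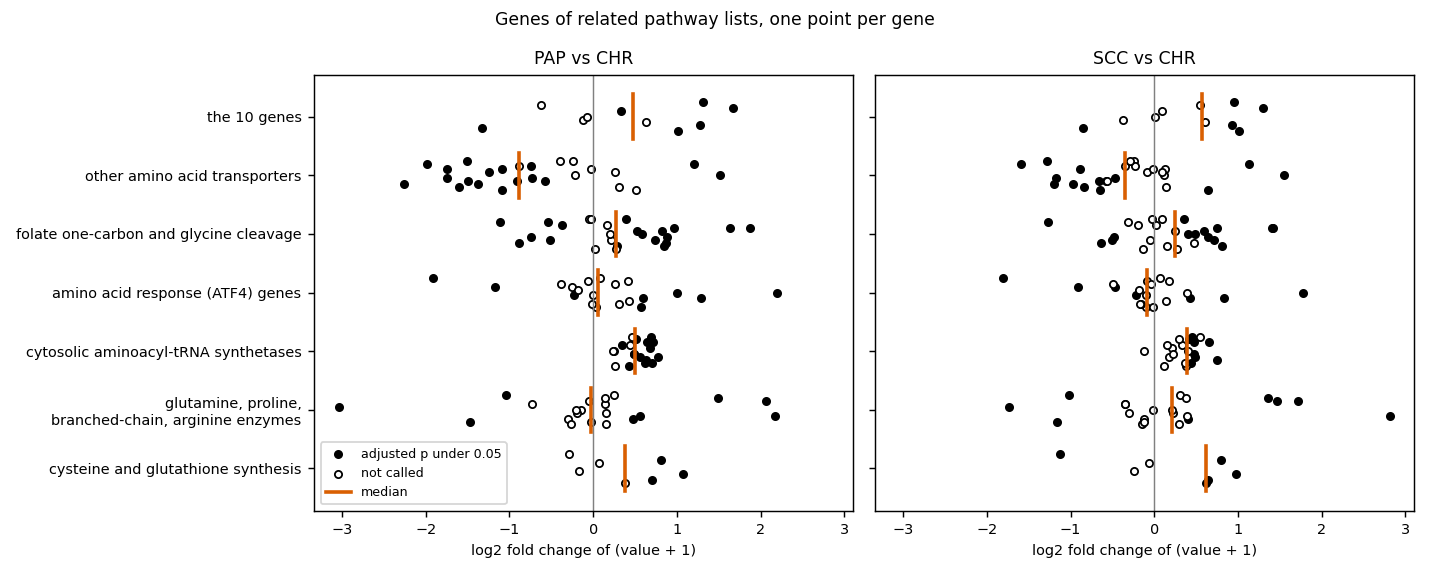
Log2 fold change of every gene (points, filled where the adjusted p was under 0.05) of the 10 genes and 6 related lists in PAP vs CHR and SCC vs CHR, with the list median as an orange bar. The other transporters lie mostly under 0 (median -0.89 in PAP vs CHR) and the tRNA synthetases mostly above it (median 0.50).

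Likeness of profiles was measured as the root mean square difference of centred log2 values over the 18 libraries, for all other genes of the table. The nearest genes of Asns were Eif4ebp1 (0.17), Hist1h3g (0.19) and Mastl (0.21), against a spread of 0.66 of Asns itself. For Shmt2 they were Plk1 (0.24), Zwilch (0.25) and Tacc3 (0.25), against 0.79, and for Slc7a5 Foxm1 (0.27), Cdk6 (0.27) and Prep (0.28), against 0.64. For Slc1a5 they were Map4k1 (0.21), C1ra (0.24) and Gng2 (0.25), against 0.66, and for Psat1 Trim13 (0.28), Mpzl2 (0.28) and Zdhhc13 (0.30), against 0.67. Mthfd2 was nearest to Tnfsf9 (0.25), Agps (0.26) and Ptpn13 (0.26), against 0.54. For Slc7a11 the closest genes, Lyve1, Esd and Cldn8, differed by 0.52 to 0.57 against 0.79, the largest nearest difference of the 10. Slc3a2 (nearest Rhog, Rras and Atp6v0c), Psph (Dgat1, Plekhf2 and Lpcat3) and Phgdh (Pigo, Trpc2 and Cc2d1b) had smaller spreads, of 0.22, 0.38 and 0.26, and nearest differences of 0.15, 0.22 and 0.091.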

How the data were processed

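mRNA was sequenced from 18 tissue samples of 6 mice. The authors aligned paired reads to mm10, counted them per gene with HTSeq, divided counts by scaling factors and applied a variance-stabilising transformation. What the authors deposited is a score, rounded to integers on a linear transformed scale, in which 0 reads appear as 39. The authors also described scaling batch medians. All low values could be placed on steps of whole reads, with the steps fitted to those same values. The aligner used for mouse, the annotation and the strandedness are not given in the sources used here. Of 14542 rows, 21 with a number for a symbol (at most 0.236% of a library) were left out, and 0 columns were unmapped.

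The transformation was inverted with a zero level of 39.14, and size factors (0.835 to 1.18) were found from the steps. Transforming the nearest whole number of reads gave back the deposited integer, with no tolerance, for 97.3% of all values and for 100% of those under 100. The zero level and size factors were chosen to place the values under 100 on the steps, so the 100% is not a separate check. In a simulated table the error was at most 0.163%. The inversion was used for levels and for those alternatives below that rest on recovered or normalised reads, and not for the main test. A score is not a count, so limma (3.58.1, R 4.3.3) on log2(value + 1), pseudocount 1, with stage and mouse as fixed terms over all 18 libraries, was the test, two-sided, with a threshold of 0.05. Each mouse gave all 3 tissues, so the replicate numbers pair the samples by animal, and correlations of same-mouse deviations ran from -0.24 to 0.51. The highest correlation with a library of another mouse ran from 0.081 to 0.36 and was often the larger. The pairing therefore rests on the labels and not on these correlations. Tested on simulated data with 200 genes changed 2-fold among 14521 in PAP vs CHR, limma recovered 67% with 1.47% false calls. In the real samples 52.6% of genes were called in that comparison, so these rates need not hold for them. The mixed model of the progression classes was checked against nlme (3.1.168) on 110 genes, with 100% of classes the same. No pair of libraries shared more than 2.23% of values.

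The members and lists were chosen with earlier results of these data known. Named from each list were the 3 genes with the largest change in PAP vs CHR among those called and moving one way in all 6 mice, plus Atf4. Other list genes in the text (Slc7a1, Slc38a2, Slc38a3, Slc7a7, Slc7a8, Slc38a1 and Bcat1) were named after their values had been seen. Exon lengths came from GENCODE M21 (13851 symbols matched) and promoters from RefSeq. Alternatives were no block, a pseudocount of 10, a minimum mean of 100 normalised reads, median-centred libraries, recovered reads scaled to library totals, keratinocyte scalings (general markers alone were added after seeing the data), limma-voom, log2 of normalised reads, fits of 2 stages and leaving out each mouse.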

Additional observations from a re-analysis of the deposited data

Results flagged for a closer look

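Among 30 groups of 6 values (10 genes in 3 stages), Dixon's ratio of the gap to the range was above its 95% critical value in 2, where chance gives about 1 in 20. The ratio was taken on log2(value + 1) of the deposited values, not on the normalised reads given here. Asns in the papilloma of mouse 10 stood at 4884 normalised reads, with the other 5 papillomas between 1958 and 2492 and a ratio of 0.739. Asns in the skin of mouse 2 stood at 1238 normalised reads, with the other 5 skin samples between 815 and 954 and a ratio of 0.627. Leaving out either mouse kept the call of Asns in PAP vs CHR.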

How the results depend on the processing

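Over all genes, SCC vs PAP was the unstable comparison. Its 1430 calls became 810 without the replicate block, 0 in a fit of these stages alone, 471 without mouse 3, 0 without mouse 7 or mouse 8 (0 to 1995 over the 6 mice), 4941 relative to general and basal keratinocyte markers and 3409 relative to general markers alone. On these last scales PAP vs CHR moved from 7639 calls to 13043 and 8559, and SCC vs CHR from 5583 to 8496 and 3249. With libraries centred on their medians the split of SCC vs CHR went from 2291 higher and 3292 lower to 3105 and 2810, and limma-voom gave 2811 and 2756.

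The mouse gave all 3 tissues, and the fit without the replicate block called 5 members in place of 6 in PAP vs CHR, losing Phgdh, 5 in SCC vs CHR and 0 in place of 1 in SCC vs PAP. Without it the transporters had 1 call in place of 3 and the glutamine, proline, branched-chain and arginine enzymes 1 in place of 2 in SCC vs PAP, and the ATF4 genes 4 in place of 7 in SCC vs CHR. It changed no other count by over 1.5 times. Fits of the 2 stages compared gave 0 calls in SCC vs PAP for members and every list, called Slc7a11 lower in PAP vs CHR and called Mthfd2 higher in SCC vs CHR (adjusted p = 0.0321). With median-centred libraries Mthfd2 was called in PAP vs CHR (0.77).

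Leaving out 1 mouse at a time, the members called ran from 5 to 7 in PAP vs CHR, were 5 throughout in SCC vs CHR and ran from 0 to 1 in SCC vs PAP. Late members ran from 0 to 1. In SCC vs PAP the transporters ran from 0 to 4, the ATF4 genes, the tRNA synthetases and the cysteine genes from 0 to 1 and the glutamine and related enzymes from 0 to 2. In SCC vs CHR the ATF4 genes ran from 4 to 6, the tRNA synthetases from 4 (without mouse 10) to 8 and the cysteine genes from 2 (without mouse 7 or 9) to 4.

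Relative to general markers alone, SCC vs CHR called 3 members, 4 folate genes (2 higher), 4 ATF4 genes (1 higher), 0 tRNA synthetases and 1 cysteine gene (lower), PAP vs CHR called 11 folate genes (2 higher), 0 tRNA synthetases and 13 glutamine and related enzymes (3 higher), and SCC vs PAP called as higher 2 members, 14 transporters, 1 tRNA synthetase and 5 glutamine and related enzymes. Relative to general and basal markers, PAP vs CHR called 17 ATF4 genes (1 higher and 16 lower) and 20 glutamine and related enzymes (2 higher and 18 lower), SCC vs CHR called 14 ATF4 genes (1 higher and 13 lower), 2 tRNA synthetases and 2 cysteine genes, all 4 lower, and SCC vs PAP called as higher 2 members, 15 transporters, 3 folate genes, 3 ATF4 genes, 1 tRNA synthetase and 9 glutamine and related enzymes. On that scale PAP vs CHR turned negative for the called genes Phgdh (-0.80), Psat1 (-0.12), Nars (-0.36), Tars (-0.42), Mars (-0.43), Cth (-0.052), Gsr (-0.32), Gss (-0.43) and Atf4 (-0.54), and SCC vs CHR for Phgdh (-0.52, not called before), Nars (-0.12), Mars (-0.15) and Atf4 (-0.18). Members called on neither scale that turned negative were Mthfd2 in PAP vs CHR (-0.50), and Slc7a11 (-0.064) and Mthfd2 (-0.0021) in SCC vs CHR, where Slc3a2 went from 0.02 to -0.59. On general markers alone PAP vs CHR turned negative for Phgdh (-0.32), Atf4 (-0.062) and Mthfd2 (-0.023), and SCC vs CHR for Slc3a2 (-0.16) and Phgdh (-0.090). These scales subtract a marker mean, so they shift all genes alike, as the medians of all genes show. That mean rose against skin but fell from PAP to SCC. In SCC vs PAP the median of all genes therefore moved up, to 0.50 relative to general and basal markers and 0.455 relative to general markers alone. On the former scale Slc7a5 (0.17), Shmt2 (0.14), Asns (0.16), Phgdh (0.28), Psph (0.27) and Mthfd2 (0.497) turned positive there, and none was called. Relative to general markers alone, Slc1a5 was called higher there (0.95, adjusted p = 0.0159).

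Recovered reads scaled to library totals, limma-voom and log2 of normalised reads each gave 5 transporters in SCC vs PAP, the first 2 of them gave 0 ATF4 genes there, and log2 of normalised reads gave 1 glutamine or related enzyme. In SCC vs CHR the tRNA synthetases had 13 calls with median-centred libraries and 14 in limma-voom, and in SCC vs PAP 2 with median-centred libraries. A pseudocount of 10 and a minimum mean of 100 normalised reads moved none of these counts by over 1.5 times. The causes of these changes were not tested. Depth limits Phgdh, whose counts were lowest.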
